A study of Homo sapiens with 4 samples.

Results

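The enzymes that make serine from glucose carbon and pass its side carbon into the folate cycle were examined in LNCaP, a prostate cancer line that responds to androgen. They comprised 10 genes, PHGDH, PSAT1, PSPH, SHMT1, MTHFD1, SHMT2, MTHFD2, MTHFD1L, ALDH1L2 and ALDH18A1, of the 18132 genes measured. Every probe set annotated to a single gene, that gene being one of these, was taken, which gave 35 of 44988 such probe sets. Human Affymetrix gene expression arrays had been hybridised with RNA of LNCaP given exosomes from PC-3 (2 arrays), or of LNCaP given PBS as the control (2 arrays). Exosomes are small vesicles that cells release, and PC-3 is a prostate cancer line whose growth does not need androgen. All cells were grown with 10% fetal bovine serum, and labelling started from 100 ng of total RNA. The sample labels of the control arrays give no agent, and PBS comes from the treatment text. Dose, time of exposure and whether the arrays of a group came from separate cultures are not given by the labels, so p-values measure a spread that may be technical. The values are normalized intensities on a linear scale, which are read between groups for one probe set and never between probe sets.

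Serine is made in the cytosol from 3-phosphoglycerate, an intermediate of glycolysis. PHGDH oxidises it, PSAT1 adds an amino group taken from glutamate, and PSPH removes the phosphate. SHMT1 in the cytosol and SHMT2 in mitochondria then split serine into glycine and a carbon unit carried by folate. In mitochondria MTHFD2 and MTHFD1L convert that unit to formate, which leaves for the cytosol. There MTHFD1 charges it onto folate again for purine and thymidylate synthesis. ALDH1L2 instead burns the mitochondrial unit to carbon dioxide with the gain of NADPH. ALDH18A1 makes the common precursor of proline and ornithine from glutamate. Several of these genes, PHGDH, PSAT1, SHMT2 and MTHFD2 among them, are known targets of the transcription factor ATF4, a responder to lack of amino acids.

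The arrays were checked first. The 7 luminal prostate genes measured ran from 455 to 14526 over the 4 arrays. KLK3, which encodes PSA, overlapped between groups, at 13974 and 14046 on the exosome arrays, against 14526 and 13847 on the PBS arrays. The limma test called 0 of the 7, though TMPRSS2 and ACP3 fell under 0.05 before adjustment. Of all genes 0.7% were called higher and 0.188% lower, and 5.76% and 5.16% had an unadjusted p under 0.05 in those directions. TMPRSS2 read 7120 and 7328 with exosomes, against 6509 and 6636 with PBS, and ACP3 788 and 795, against 716 and 673. Both exosome arrays were higher than both PBS arrays in these 2, and lower in another 2 of the 7. Over all genes these shares were 17.8% and 21.9%. The extraction text names brain cortex, against every sample label. Of 9 brain markers measured, 0 passed the limma test (adjusted p under 0.05) and 1 had an unadjusted p under 0.05. Both exosome arrays lay above both PBS arrays in 4 of the 9 and below them in 1. Summed, they read 1813 and 1816 with exosomes, against 1674 and 1766 with PBS. MBP made up much of that sum, with 867 and 868 with exosomes, against 764.0 and 763.6 with PBS. Marker transcripts of PC-3 that LNCaP makes little of summed to 1205 and 1250.3 with exosomes, against 1263 and 1276 with PBS, and 0 of 10 passed the limma test (0 at an unadjusted p under 0.05). The ratio of 3' to 5' beta-actin signal, which RNA breakdown raises, overlapped between groups, at 6.82 and 5.39 with exosomes, against 5.74 and 7.17 with PBS. That of GAPDH did not overlap, at 1.35 and 1.34 with exosomes, against 1.32 and 1.33 with PBS, and its part in the results below was not tested. In RNA of whole cultures, fewer cells of a kind and less RNA per cell cannot be told apart.

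With PC-3 exosomes, SHMT2 rose 1.21-fold, and the other 9 genes did not pass the test. Among those, the largest differences were MTHFD1L at 1.23-fold, PSAT1 at 1.22-fold, PHGDH at 1.13-fold, MTHFD2 at 1.12-fold and PSPH at 1.11-fold. MTHFD1, ALDH1L2 and ALDH18A1 lay within 0.05 of 0 on the log2 scale. Genes were tested with limma over all 18132 genes on log2 of the value plus 1, with the brightest probe set standing for each gene. At an adjusted p under 0.05, 1 of the 10 was higher and 0 were lower, where 0.7% of all genes were higher and 0.188% lower. An unadjusted p under 0.05 was reached by 6 of the 10 above PBS and 0 below, against 5.76% and 5.16% of all genes. Both exosome arrays lay above both PBS arrays in 7 of the 10 genes and in 17.8% of all genes, and below them in 0 of the 10 and in 21.9% of all genes. A difference above 0 was found in 8 of the 10, against 44% of all genes. Their median log2 difference was 0.16, beside -0.01 over all genes. The members and lists were chosen with earlier results of these data known, so the shares here and below describe them and are no test.

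**Figure D1:**
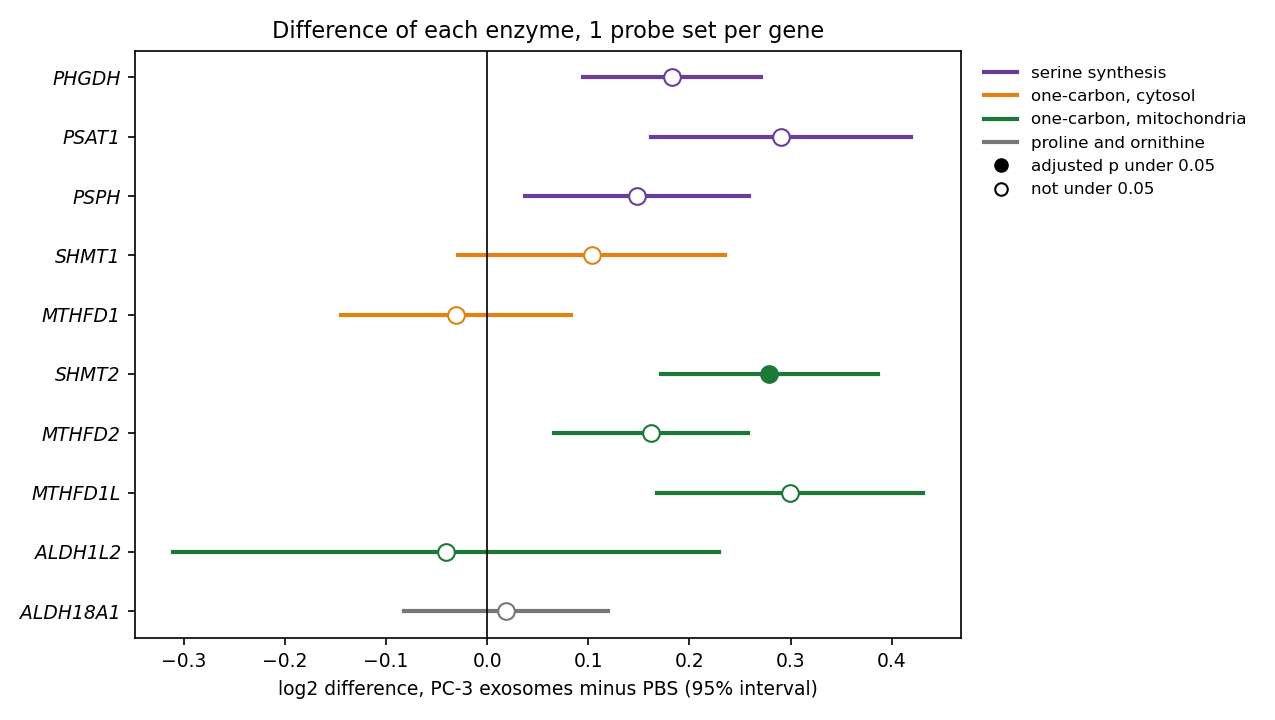
Log2 difference of each enzyme, PC-3 exosomes minus PBS, on the x axis, with 1 row per gene coloured by role and compartment. Points are limma estimates from 2 arrays a group, lines their 95% intervals, and the filled point, SHMT2 at 0.28, is the gene with an adjusted p under 0.05. The intervals of SHMT1, MTHFD1, ALDH1L2 and ALDH18A1 span 0.

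The serine synthesis enzymes came first in the pathway. PHGDH, which commits glycolytic carbon to serine, had an intensity of 4769.6 and 4886 with exosomes, against 4322 and 4188 with PBS (probe set 11728203_a_at). The groups did not overlap, and 95.6% of all genes had a lower difference. Its log2 difference was 0.18 (SE 0.039, 95% interval 0.09 to 0.27, limma adjusted p = 0.0854). PSAT1, the aminotransferase, had 5141 and 5406 with exosomes, against 4061 and 4572 with PBS (11756182_s_at). PBS replicate 2 was the PBS array nearer to the exosome arrays, and the groups did not overlap. The log2 difference was 0.29 (SE 0.057, 95% interval 0.16 to 0.42, adjusted p = 0.0590). PSPH, the phosphatase that releases serine, had 1886 and 1823 with exosomes, against 1722 and 1626 with PBS (11730796_x_at). Its log2 difference was 0.15 (SE 0.049, 95% interval 0.04 to 0.26, adjusted p = 0.293), again with no overlap between groups.

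Among the mitochondrial folate enzymes, SHMT2, which feeds serine carbon into the organelle's folate pool, had 2119 and 2200.1 with exosomes, against 1821 and 1738 with PBS (11750992_x_at). Its log2 difference was 0.28 (SE 0.047, 95% interval 0.17 to 0.39, limma adjusted p = 0.0345), and both exosome arrays were above both PBS arrays. The call was lost whichever array was left out. Such a fit leaves 1 array in a group, and fewer of all genes were called there too, so only the difference is read. Over those 4 fits the log2 difference of SHMT2 stayed between 0.25 and 0.31. MTHFD2, the dehydrogenase and cyclohydrolase, had 5194 and 5551 with exosomes, against 4773 and 4827 with PBS (11744002_s_at). Exosome replicate 2 stood highest and the PBS arrays were close together. The log2 difference was 0.16 (SE 0.043, 95% interval 0.07 to 0.26, adjusted p = 0.170). MTHFD1L, the synthetase that releases formate, had 641 and 672 with exosomes, against 542 and 524 with PBS (11728985_s_at), with no overlap. Its log2 difference of 0.30 (SE 0.058, 95% interval 0.17 to 0.43) had an adjusted p of 0.0578. ALDH1L2 was dim, at 39.1 and 48.7 with exosomes, against 41.8 and 48.4 with PBS (11752169_a_at), and its groups overlapped. The median of the 23 background control probe sets was 18.7 to 19.5 over the 4 arrays, and their range reached 3749.9, so that no cutoff follows for one probe set. Its log2 difference was -0.04 (SE 0.12, adjusted p = 0.956), and the 95% interval of -0.31 to 0.23 was the widest among the 10 genes.

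Of the cytosolic folate enzymes neither passed the test. SHMT1 had 824 and 876 with exosomes, against 769 and 814 with PBS (11733969_a_at). The arrays did not overlap, yet the gap between the nearest ones was small. The log2 difference of SHMT1 was 0.10 (SE 0.058, 95% interval -0.03 to 0.24, adjusted p = 0.576). MTHFD1, which carries the synthetase, cyclohydrolase and dehydrogenase activities in a single protein, had 1039 and 1084 with exosomes, against 1079 and 1089 with PBS (11716667_a_at). The groups overlapped, with a log2 difference of -0.03 (SE 0.050, 95% interval -0.14 to 0.08, adjusted p = 0.895). ALDH18A1, on the proline branch, had 1772 and 1830.0 with exosomes, against 1782 and 1774 with PBS (11716412_s_at). These overlapped too, at a log2 difference of 0.02 (SE 0.045, 95% interval -0.08 to 0.12, adjusted p = 0.939).

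**Figure D2:**
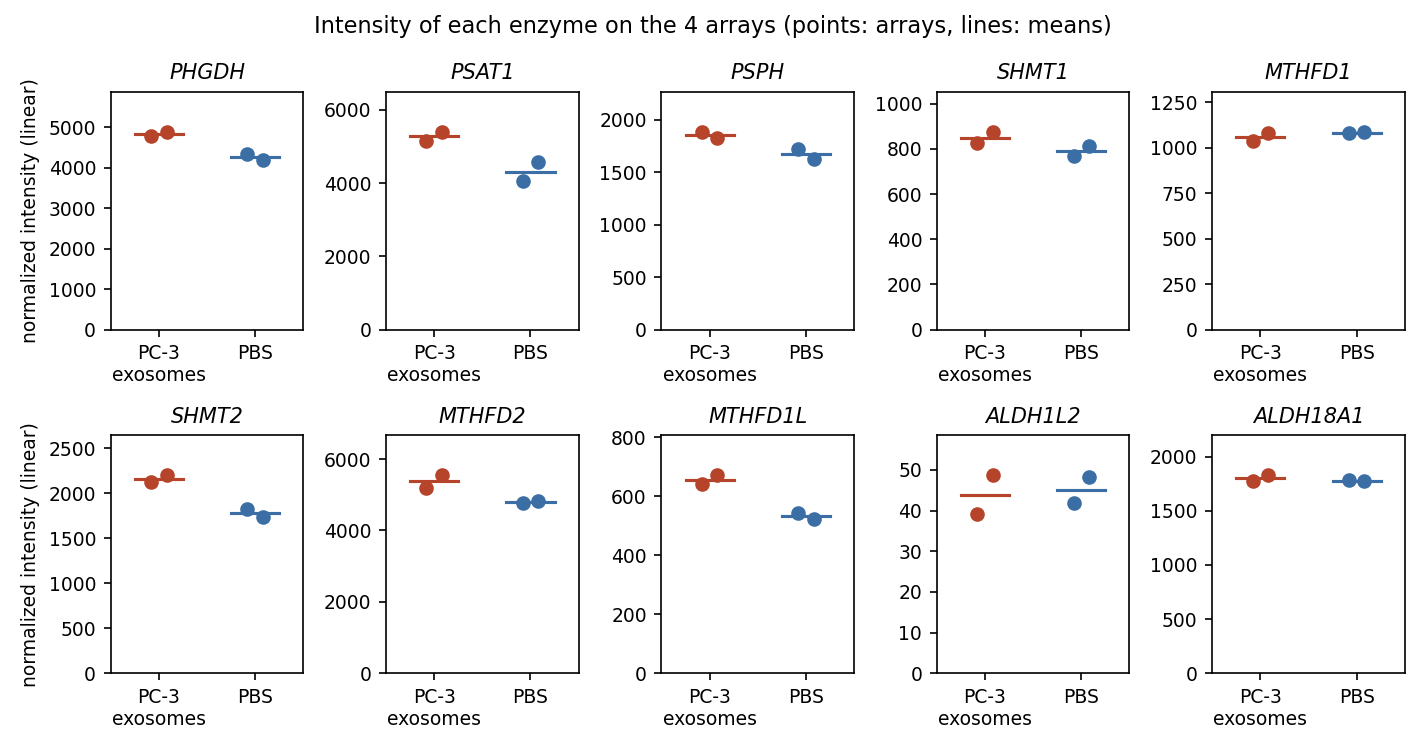
Normalized intensity (linear, y axis from 0) of each enzyme, 1 panel per gene, with PC-3 exosome arrays on the left and PBS arrays on the right of each panel. Points are the 2 arrays of a group and lines their means. The groups are apart in 7 panels and overlap for MTHFD1, ALDH1L2 and ALDH18A1.

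Mitochondrial and cytosolic enzymes with the same reaction were set against each other within each array. Only the change of their log2 ratio between groups is read, since the ratio itself mixes different probes. The ratio of SHMT2 to SHMT1 was 1.36 and 1.33 with exosomes, against 1.24 and 1.09 with PBS, a difference of 0.18. For MTHFD2 over MTHFD1 it was 2.32 and 2.36 with exosomes, against 2.14 and 2.15 with PBS, a difference of 0.19. MTHFD1L over MTHFD1 gave -0.70 and -0.69 with exosomes, against -0.99 and -1.05 with PBS, and differed by 0.33. The groups did not overlap in any of the 3 ratios. Dropping a PBS array moved the SHMT2 to SHMT1 difference to 0.25 (replicate 1 dropped) or 0.10 (replicate 2 dropped). Each had a two-sided exact permutation p of 0.333, the smallest that 2 arrays against 2 allow, so unequal change of the paired enzymes is not shown by this test. The last of these ratios moved by 0.24 in place of 0.33 when the probe sets of each gene were averaged.

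MTHFD1L and MTHFD1 are shown with their promoters, since their ratio differed most of the 3 with 1 probe set per gene. With probe sets averaged, SHMT2 over SHMT1 differed by 0.25 as well, so that order is lost. The sequences are RefSeq's windows of 250 bases before and 50 after a gene start in GRCh38.p14, which hold 7 of the 10 genes. Capitals mark matches to CACGTG, the E-box, or to TGATGNAA on either strand, the composite element of C/EBP and ATF factors. The MTHFD1L window lies at chr6:150866197-150866496 and that of MTHFD1 at chr14:64388103-64388402, both on the plus strand.
MTHFD1L: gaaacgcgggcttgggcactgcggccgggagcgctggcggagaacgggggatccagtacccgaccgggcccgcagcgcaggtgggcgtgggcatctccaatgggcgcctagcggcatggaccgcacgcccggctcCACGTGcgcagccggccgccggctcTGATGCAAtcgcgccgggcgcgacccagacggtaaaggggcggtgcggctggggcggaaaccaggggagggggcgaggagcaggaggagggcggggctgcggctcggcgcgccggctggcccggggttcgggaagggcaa
MTHFD1: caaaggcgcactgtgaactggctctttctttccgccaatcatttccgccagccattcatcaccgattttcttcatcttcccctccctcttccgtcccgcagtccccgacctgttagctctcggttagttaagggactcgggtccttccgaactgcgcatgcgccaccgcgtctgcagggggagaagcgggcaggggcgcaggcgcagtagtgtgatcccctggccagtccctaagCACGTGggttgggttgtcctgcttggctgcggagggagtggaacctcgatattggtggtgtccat
The composite element was found in 1 of the 7 genes, MTHFD1L, as TGATGCAA in 3 of its 4 windows, starting at position -90 from the gene start in the window shown. Those 3 windows overlap and hold the same match. It starts at position 25, past the gene start, in another of them and at -129 in the last. Of all 27305 genes with a window, 4.46% hold it in at least 1 window, as do 3.62% of the 35116 windows. The E-box was found in 3 of the 7 genes, MTHFD1L, MTHFD1 and ALDH18A1, against 8.77% of all genes and 7.26% of all windows. These genes had log2 differences of 0.30, -0.03 and 0.02. PHGDH, PSAT1, MTHFD2 and SHMT1 had no match to either motif within these 300 bases. A match describes letters in a window and says nothing of binding.

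Several genes were read by more than 1 probe set, and such probe sets share a gene and are no replicates. Tested over all 44988 probe sets, 2 of the 35 were higher and 0 lower at an adjusted p under 0.05, against 0.238% and 0.02% of all probe sets. Both exosome arrays were above both PBS arrays in 24 of 35 and below in 1 of 35, where 17.2% and 20.5% of all probe sets were. An unadjusted p under 0.05 was reached by 21 of 35 in the higher direction and 0 in the lower, against 4.73% and 4.14% of all. The median log2 difference of the 35 was 0.17, beside -0.01 over all probe sets, and 29 were above 0, which held for 45.8% of all.

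The 2 that passed were both of PSAT1. Probe set 11751230_a_at had 1003 and 1085 with exosomes, against 747 and 763 with PBS, a log2 difference of 0.47 (SE 0.060, limma adjusted p = 0.0361). Probe set 11742991_a_at had 1452 and 1571 with exosomes, against 1133 and 1148 with PBS, a log2 difference of 0.41 (SE 0.056, limma adjusted p = 0.0481). All 8 PSAT1 probe sets ran from 0.26 to 0.49 with no overlap between groups, and the brightest, which stood for the gene, was not the one with the largest difference. Neither of the 2 that passed did so with any single array left out, which leaves 1 array in a group, so only the differences are read. Over those fits their log2 differences were 0.35 to 0.52.

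The 4 probe sets of SHMT2 lay close together, from 0.26 to 0.34, and none overlapped between groups. In this wider test SHMT2's adjusted p values began at 0.105, so its call in the gene test was not met here. The 5 of MTHFD2 ran from 0.09 to 0.19, and 4 of them did not overlap. MTHFD1L was split: 3 probe sets designed on its RefSeq transcript had log2 differences of 0.18, 0.30 and 0.38, and the remaining one, on another cDNA record, had -0.005. That one, 11756196_a_at, read 197 and 190.2 with exosomes, against 189 and 199 with PBS, so its groups overlapped. PSPH was split as well, with 0.15 from 1 probe set and 0.03 and -0.06 from the other 2, both with overlapping groups. SHMT1 had 5 probe sets, from -0.04 to 0.10, ALDH1L2 had 2, at -0.04 and 0.05, and ALDH18A1 had 2, at 0.02 and -0.04. Names ending in _s_at or _x_at mark probe sets that may match further sequences, and whether other transcripts add to their signal was not tested. PHGDH had 1 probe set of its own. Another that names both PHGDH and MZT2B was left out by the rule and read 4455 and 4428 with exosomes, against 4278 and 4289 with PBS.

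**Figure D3:**
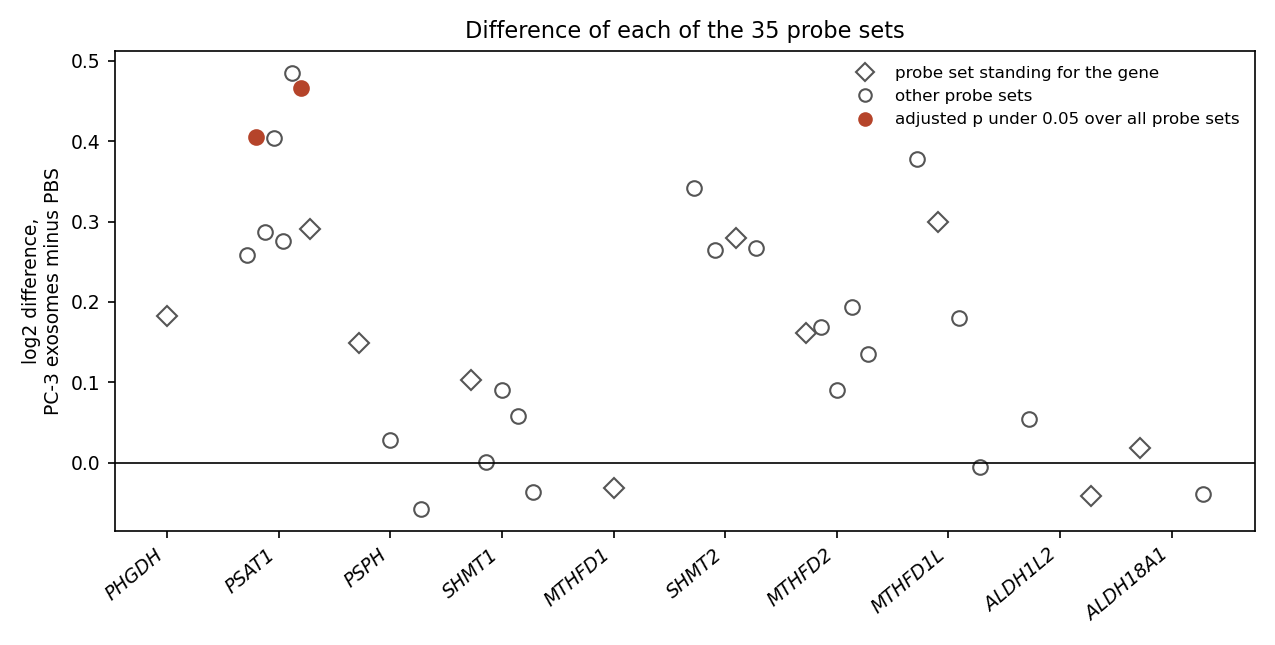
Log2 difference, PC-3 exosomes minus PBS (y axis), of each of the 35 probe sets, grouped by gene on the x axis. Diamonds mark the probe set standing for the gene, circles the others, and filled red symbols the 2 PSAT1 probe sets, at 0.41 and 0.47, with an adjusted p under 0.05 over all probe sets.

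How far the members' differences rest on one array or one scale was read gene by gene. On the scale of the 27 poly-A spike-in probe sets, control RNAs added to a sample, the median of all genes was -0.14 in place of -0.01, and 0 of the 10 passed the limma test. There SHMT2 was at 0.15 (adjusted p = 0.222), MTHFD1L at 0.18, PSAT1 at 0.17 and PHGDH at 0.06, while SHMT1 turned to -0.02 and ALDH18A1 to -0.11. All of these were above that median, and MTHFD1, at -0.16, and ALDH1L2, at -0.17, were below it. The spike-ins averaged 6.66 and 6.73 on the log2 scale with exosomes, against 6.63 and 6.52 with PBS, and whether equal amounts were added is not known. PSAT1 was moved by either PBS array, at 0.38 without PBS replicate 2 and 0.21 without PBS replicate 1. MTHFD1L stayed between 0.27 and 0.33 with any array left out, PHGDH between 0.16 and 0.21, MTHFD2 between 0.11 and 0.21 and PSPH between 0.11 and 0.19. MTHFD1 stayed at or below 0, from -0.06 to -0.0004. SHMT1 ran from 0.06 to 0.15. ALDH1L2 crossed 0, from -0.20 to 0.11, and so did ALDH18A1, from -0.005 to 0.04.

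**Figure D4:**
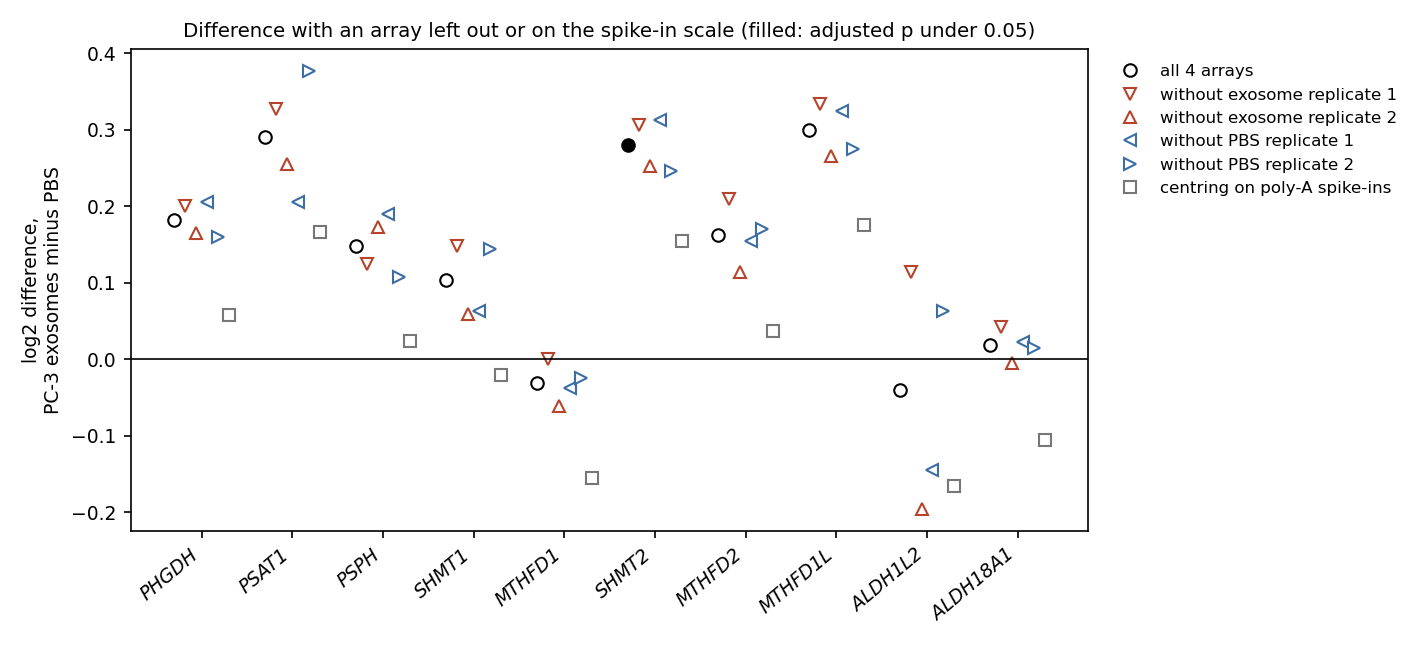
Log2 difference, PC-3 exosomes minus PBS (y axis), of each enzyme (x axis) with all 4 arrays, with each array left out in turn, and with arrays centred on the poly-A spike-ins. Filled symbols have an adjusted p under 0.05: only SHMT2 with all 4 arrays does. ALDH1L2 spans 0 and PSAT1 runs from 0.21 to 0.38 over the left-out arrays.

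Neighbouring pathways were read from 8 lists holding 107 genes, of which 94 were measured, with a median log2 difference of 0.01. At an adjusted p under 0.05, 5 of the 94 rose and 1 fell, against 0.7% and 0.188% of all genes. In the list of ATF4 with its kinases and partners, 4 of 15 rose and 0 fell, against the same shares. Its median was 0.12, over a range of -0.07 to 0.85. ATF3, a stress-induced transcription factor, rose by 0.85 (SE 0.087), and read 482 and 501 with exosomes, against 298 and 249 with PBS. TRIB3, a pseudokinase that ATF4 induces and that dampens it, rose by 0.51 (SE 0.051), and read 2712 and 2581 with exosomes, against 1932 and 1795 with PBS. ATF3 and TRIB3 passed with each of the 4 arrays left out, but not with the probe sets of a gene averaged, where ATF3 was at 0.15 (adjusted p = 0.501) and TRIB3 at 0.28 (adjusted p = 0.0561). Without a variance trend their adjusted p was 0.0540 and 0.0748. CEBPB, a C/EBP factor, rose by 0.31 (SE 0.054, adjusted p = 0.0415) and ATF4 itself by 0.21 (SE 0.039, adjusted p = 0.0447). Neither passed when any array was dropped, where fewer of all genes were called as well. The log2 difference was then 0.27 to 0.34 for CEBPB and 0.17 to 0.25 for ATF4. On the spike-in scale CEBPB was at 0.18 (adjusted p = 0.166) and ATF4 at 0.09 (adjusted p = 0.502). ATF3, at 0.72 (limma adjusted p = 1.8e-11), and TRIB3, at 0.38 (limma adjusted p = 0.00017), passed on that scale.

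Among serine users and serine transport 1 of 14 measured rose and 0 fell, against 0.7% and 0.188% of all genes, with a median of 0.04. SLC1A5, a carrier of glutamine, serine and other neutral amino acids, had 1395 and 1403 with exosomes, against 1110.3 and 990.05 with PBS. It rose by 0.42 (SE 0.061, limma adjusted p = 0.0193), and by 0.29 (adjusted p = 0.0113) on the spike-in scale. With an array left out SLC1A5 rose by 0.33 to 0.50. It did not pass without exosome replicate 1, exosome replicate 2 or PBS replicate 2. In purine and thymidylate synthesis, which use the folate carbon, 0 of 12 rose and 1 fell, against the same shares, with a median of -0.02. TYMS, thymidylate synthase, had 5594 and 5811 with exosomes, against 6547 and 6559 with PBS. It fell by 0.20 (SE 0.037, limma adjusted p = 0.0490), and was at -0.33 (adjusted p = 0.0144) on the spike-in scale. With any array dropped it did not pass, at a log2 difference of -0.23 to -0.17.

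The other 5 lists held no gene past the limma threshold. Of 7 proline and ornithine enzymes measured, ARG2, a mitochondrial arginase, had 0.17 (adjusted p = 0.255) and PYCR1, which makes proline, 0.14 (adjusted p = 0.500), with a list median of 0.05. Of 7 enzymes of glycine and serine breakdown, GCAT was at 0.09 and GCSH, of the glycine cleavage system, at 0.05, around a median of 0.0001. Of 15 other folate enzymes and transporters, GGH, which trims folate polyglutamates, had -0.15 (adjusted p = 0.334) and MTFMT, which formylates the mitochondrial initiator tRNA, -0.15 (adjusted p = 0.383), with a median of -0.05. In methionine and transsulfuration, with 12 measured and a median of 0.02, CTH, which releases cysteine, stood at 0.52 (adjusted p = 0.0840). Its arrays read 270.1 and 319 with exosomes, against 226 and 184 with PBS, and MTR, methionine synthase, was at -0.15 (adjusted p = 0.421). In glycolysis down to 3-phosphoglycerate, with 12 measured and a median of 0.01, ALDOC was at 0.25 (adjusted p = 0.106) and HK1 at 0.13 (adjusted p = 0.297). These 5 lists together held 4 genes above and 3 below PBS with an unadjusted p under 0.05, or 7.55% and 5.66% of the 53 genes measured, near the shares of all genes given above.

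**Figure D5:**
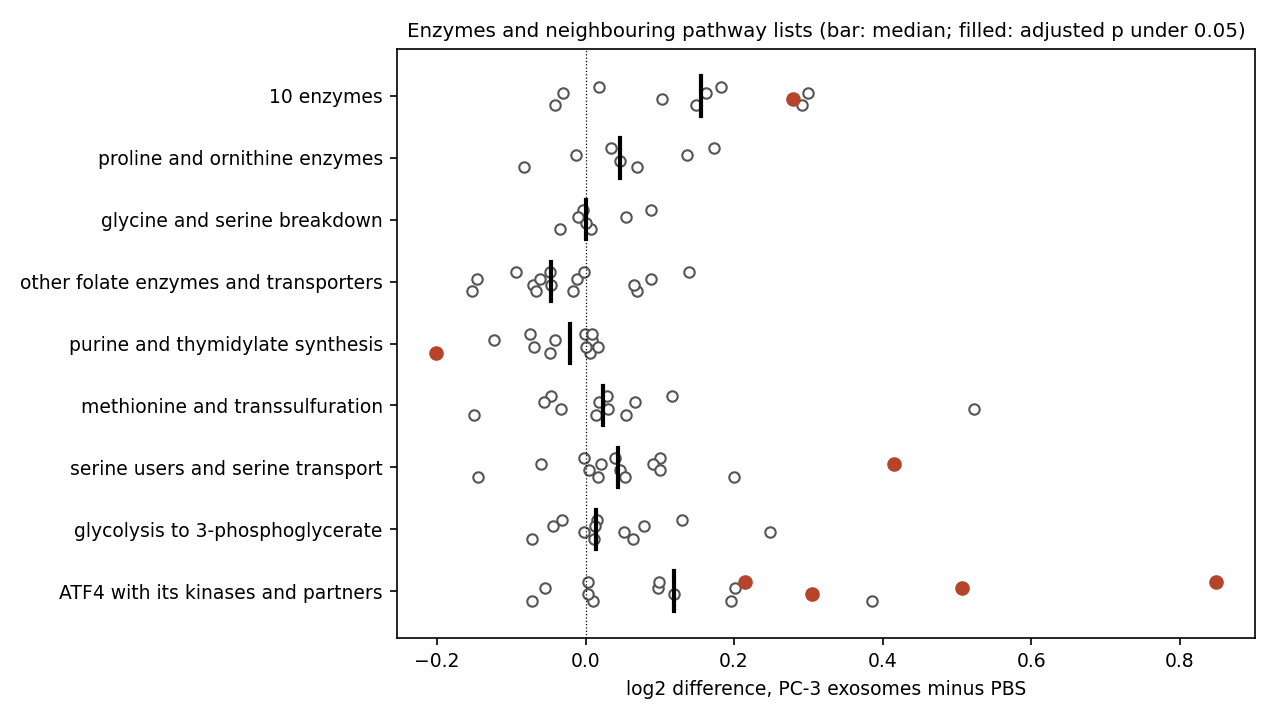
Log2 difference, PC-3 exosomes minus PBS (x axis), of the 10 enzymes (top row) and of the measured genes of 8 neighbouring pathway lists (rows below). Points are genes, filled where the adjusted p is under 0.05, and bars are medians, 0.16 for the 10 enzymes and 0.12 for the list of ATF4 with its kinases and partners.

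The genes nearest in pattern were taken as those with the smallest root mean square difference in centred log2 values over the 4 arrays, among 8973 genes at or above the median level. For PHGDH these were DGKD (0.0047), BCL6 (0.0061) and CYP4F11 (0.0064). PSAT1 was nearest to SELENOP (0.015), B2M (0.016) and IMMP2L (0.021), which also read higher on PBS replicate 2 than on PBS replicate 1. MTHFD2 was nearest to PANK1 (0.0054), SEC63 (0.0064) and AP3M1 (0.0073). With 4 arrays such a likeness is a description of these arrays alone.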

How the data were processed

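The authors deposited a normalized intensity for each probe set and array. MAS5 and RMA are named per the submitters' processing notes, with no role or version, and the array's genome build is not given in the sources used here. At 4 arrays, 2 a group, their number limits the precision. Of 49395 probe sets 44988 named a single gene, 1832 several, 2473 none and 102 were controls. Symbols came from the platform annotation, and 0 changed through gene IDs. A pseudocount of 1 was added before log2, and folds are on that scale. The probe set with the highest mean stood for each of 18132 genes. limma 3.58.1 in R 4.3.3 (lmFit, eBayes with a trend, two-sided) gave PC-3 exosomes minus PBS, with Benjamini-Hochberg adjustment over all genes or, separately, all probe sets. The fit had 2 residual and 7.0 prior degrees of freedom. It was also run on simulated data drawn from its own variance model, which cannot show whether its p-values hold for these arrays.

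The members and lists were chosen with earlier results of these data known. Named genes were all 10 members, and from each list up to 4 genes past the threshold with the largest change, or else the 2 with the smallest p. For PHGDH, PSAT1 and MTHFD2 the 3 nearest genes in pattern were named, leaving out LOC symbols and open reading frames. Alternatives were other normalizations, filters, probe set summaries, variance models and thresholds, a block for the replicate number, and each array left out in turn. A group then left with 1 array is taken to vary as the other group does. Figures were drawn with matplotlib 3.10.9.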

Additional observations from a re-analysis of the deposited data

How the results depend on the processing

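The single call among the 10 enzymes depended on the setting. With all 4 arrays 1 gene was higher, SHMT2. The count was 4 (MTHFD1L, PHGDH, PSAT1 and SHMT2) after quantile normalization, among genes at or above the median level, where fewer genes are tested, and at an adjusted p under 0.1. It was 3 among genes at or above the 30th percentile of level, without PHGDH. It was 2 (PSAT1 and SHMT2) after centring on array medians or with probe sets averaged, and 0 on the spike-in scale, with every probe set tested, without a variance trend, with the replicate number as a block and at an adjusted p under 0.01. Leaving out any of the 4 arrays gave 0. With a pseudocount of 16 or robust eBayes it stayed 1. At each of these settings 0 of the 10 were lower. The members' median log2 difference of 0.16 was 0.031 on the spike-in scale and 0.10 with probe sets averaged, and 0.14 to 0.17 with an array left out. Centring on the spike-ins lowers every gene's log2 difference by the same 0.12, and the median of all genes went from -0.01 to -0.14. The ratio of MTHFD1L to MTHFD1 differed by 0.24 with probe sets averaged, and by 0.30 to 0.36 with an array left out. With an array left out, SHMT2 over SHMT1 differed by 0.10 to 0.25 and MTHFD2 over MTHFD1 by 0.18 to 0.21. Signs turned for SHMT1 (-0.021) and ALDH18A1 (-0.11) on the spike-in scale, and for ALDH1L2 (0.0068) and ALDH18A1 (-0.010) with probe sets averaged. They also turned for ALDH1L2 without exosome replicate 1 or PBS replicate 2, over a range of -0.20 to 0.11 with an array left out, and for ALDH18A1 without exosome replicate 2, over a range of -0.0046 to 0.042. The member probe sets past the threshold, 2 with all arrays, numbered 0 with any array left out and 0 with the replicate block. These probe set fits, and the alternatives for the list genes, were chosen after seeing the data. In the block fit SHMT2 had an adjusted p of 0.217, ATF3 0.150 and TRIB3 0.0805, and CEBPB, ATF4, SLC1A5 and TYMS 0.190 to 0.205. Without a variance trend the adjusted p of SLC1A5, CEBPB, ATF4 and TYMS was 0.180 to 0.358, and with every probe set tested 0.0670 to 0.128. The labels do not say what the numbers 1 and 2 stand for, and deviations of same-numbered arrays from their group means had r = -0.04 over 18132 genes. Calls over all genes moved too, from 127 higher and 34 lower of 18132 with all 4 arrays. They were 176 and 69 after quantile normalization, 146 and 42 after median centring and 102 and 26 with probe sets averaged. The spike-in scale gave 69 and 407, and every probe set tested 55 and 9. No variance trend gave 18 and 3, and the replicate block 2 and 0. Filters at the median and 30th percentile gave 213 and 84 of 9066 and 177 and 57 of 12692. Pseudocount 16 gave 125 and 30, and robust eBayes 136 and 39. With any array left out fewer of all genes were called. Where a cause of these shifts is not named, it was not tested. ALDH1L2, dimmer than the median gene, was not tested under the filters on level.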
